A study of Mus musculus with 6 samples.

Results

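Interferon-induced genes, the interferon regulatory factors that switch them on and the interferon receptors were followed in mouse Renca tumors grown at 2 sites. The genes were a named list of 49: 25 genes induced mainly by type I interferon, 11 induced mainly by interferon gamma, 8 interferon regulatory factors, and 5 receptors. Of these, 44 had a row of the array paired with exactly 1 gene, out of 19938 genes measured that way: 23 type I-induced, 8 gamma-induced, 8 regulatory factors and 5 receptors. Isg15, Gbp2, Igtp and Irgm2 shared their row with another gene, and Ifi44 had no row, so these 5 were not analysed here.

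Renca is a renal carcinoma cell line of BALB/c mice. Cells were placed in the outer cortex of the kidney (intrakidney, 3 mice) or under the skin (subcutaneous, 3 mice) of BALB/c hosts, and each tumor was frozen on day 12. The labels name no drug and no genetic change for either group, and the sources used here give neither age nor sex of the mice. Both groups came from this 1 cell line, and the RNA was that of whole tumors, so it held transcripts of tumor cells and of host cells together. In such bulk RNA, fewer cells of a type and less RNA per cell cannot be told apart. Values are log2 RMA intensities, 1 array per tumor, with array medians between 7.08 and 7.11. Levels of different genes are not compared, because probes differ in brightness.

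Type I interferons (alpha and beta) bind the receptor made of Ifnar1 and Ifnar2 and act through factors such as Stat2 and Irf9 on the interferon-stimulated response element (ISRE) of antiviral genes such as Ifit1, Mx1 and Rsad2. Interferon gamma, made mostly by T cells and NK cells, binds Ifngr1 and Ifngr2 and acts on the gamma-activated site (GAS). It induces Irf1, and through it immunity-related and guanylate-binding GTPases and the chemokines Cxcl9, Cxcl10 and Cxcl11, which attract cells that carry Cxcr3. Many genes answer to both kinds of interferon, so the division used here is one of degree.

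Promoter sequence is shown for 8 members, 7 with a match to the ISRE core and Irf1 with a match to the GAS, because interferon signals reach their target genes through these 2 motifs. The division of the list into type I-induced and gamma-induced genes did not use them. Each stretch is 100 bases long, read 5′ to 3′ on the strand of the gene from RefSeq on GRCm38.p6, with motif matches in capitals. All lie before the annotated start of the gene, at distances that differ. Those of Gbp3 and Irgm1 end 1 base before it, while that of Cxcl10 runs from 228 to 129 bases before it. The ISRE core was searched as GAAANNGAA and the GAS as TTCNNNGAA on both strands, within the 250 bases before each start. The first reads as its reverse complement where it lies on the other strand, and the second can overlap it. The stretches lie at chr19:34640765-34640864 (plus strand) for Ifit1, chr19:34583359-34583458 (plus) for Ifit3, chr12:26456487-26456586 (minus) for Rsad2 and chr3:142559944-142560043 (plus) for Gbp3. Those of the others lie at chr11:48871421-48871520 (minus) for Irgm1, chr5:92328170-92328269 (minus) for Cxcl9, chr5:92349018-92349117 (minus) for Cxcl10 and chr11:53769909-53770008 (plus) for Irf1.
Ifit1: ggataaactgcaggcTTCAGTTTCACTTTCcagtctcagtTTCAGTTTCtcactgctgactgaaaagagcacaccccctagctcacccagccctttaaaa
Ifit3: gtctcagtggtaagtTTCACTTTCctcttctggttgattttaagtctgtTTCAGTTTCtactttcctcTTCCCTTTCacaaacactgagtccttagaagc
Rsad2: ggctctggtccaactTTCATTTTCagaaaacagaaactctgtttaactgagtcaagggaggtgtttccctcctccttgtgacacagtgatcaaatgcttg
Gbp3: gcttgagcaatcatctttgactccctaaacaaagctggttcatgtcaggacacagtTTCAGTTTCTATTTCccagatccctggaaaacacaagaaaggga
Irgm1: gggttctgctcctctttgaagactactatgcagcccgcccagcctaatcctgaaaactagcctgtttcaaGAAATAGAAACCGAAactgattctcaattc
Cxcl9: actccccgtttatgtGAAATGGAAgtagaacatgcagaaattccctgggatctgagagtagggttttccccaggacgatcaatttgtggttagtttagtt
Cxcl10: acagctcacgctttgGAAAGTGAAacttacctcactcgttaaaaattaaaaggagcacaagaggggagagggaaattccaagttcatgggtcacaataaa
Irf1: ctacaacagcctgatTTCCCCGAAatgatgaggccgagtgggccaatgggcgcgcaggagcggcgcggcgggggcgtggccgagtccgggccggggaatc

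The RefSeq promoter table held 39 of the 49 members. The ISRE core lay before 9 of 18 type I-induced genes, all 8 gamma-induced genes found there (Gbp2, Gbp3, Igtp, Irgm1, Irgm2, Cxcl9, Cxcl10 and Socs1), 1 of 8 regulatory factors (Irf2) and 0 of 5 receptors. Over all genes of the table it lay before 8.18% of genes, or in 7.13% of the windows. Ifit1, Ifit3 and Isg15 had 3 matches each. The GAS lay before 5 of 18 type I-induced genes, 2 of 8 gamma-induced genes (Igtp and Irgm2), 3 of 8 regulatory factors (Irf1, Irf2 and Irf8) and 1 receptor gene (Ifnar2), against 8.13% of all genes and 7.02% of windows. These are letter matches in a short window and a description only.

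No member passed the threshold between the sites. With limma over all genes, 0 of 44 members had an adjusted p under 0.05, where 0.231% of the 19938 genes did (46 genes), and the smallest adjusted p of a member was 0.441. At an unadjusted p under 0.05 there was 1 member, Ifi35, where 8.43% of all genes passed. The groups did not overlap for 6 members, 5 of them higher in intrakidney tumors (Cxcl10, Ifi35, Oas2, Irf8 and Ifngr2) and 1 lower (Zbp1), where 14.9% of all genes showed such a state. These shares are no larger than the background. The median log2 fold change (intrakidney minus subcutaneous) of the 44 members was 0.03, against -0.0058 over all genes, with 28 members higher and 16 lower.

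**Figure D1:**
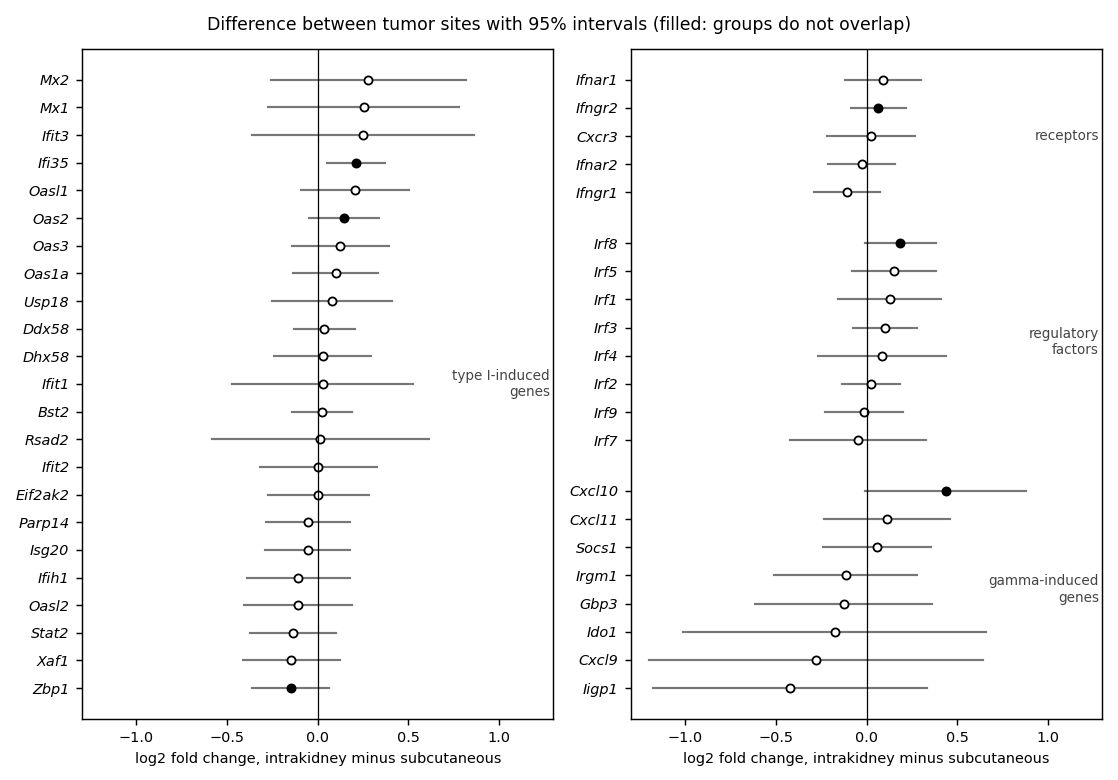
Log2 fold change (intrakidney minus subcutaneous, x axis) of the 44 measured members by role, as points with 95% intervals of the limma fit (n = 3 arrays per group). Filled points are the 6 members whose groups do not overlap, and among all 44 the interval of Ifi35 alone leaves out 0.

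Receptor genes lay close together on the 6 arrays. Ifngr1, the ligand-binding chain of the interferon gamma receptor, measured 10.46, 10.32 and 10.27 in intrakidney tumors 1, 2 and 3 and 10.46, 10.51 and 10.41 in subcutaneous tumors 1, 2 and 3. The groups overlapped, and the difference was -0.11 ± 0.08 on the log2 scale (SE, adjusted p = 0.804). Ifngr2, the signalling chain, measured 10.71, 10.69 and 10.76 against 10.65, 10.66 and 10.64. Its intrakidney arrays all lay above the subcutaneous ones, but by only 0.07 ± 0.06 (adjusted p = 0.876). Ifnar1, a chain of the type I receptor, measured 10.15, 9.93 and 9.90 against 9.98, 9.89 and 9.83, a difference of 0.09 ± 0.09 (adjusted p = 0.875) between groups that overlapped, which was 0.013 without intrakidney tumor 1.

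Ifnar2, the other chain of the type I receptor, and Cxcr3, the chemokine receptor of activated T cells and NK cells, differed by -0.03 and 0.02. Cxcr3 measured 8.04, 7.93 and 7.76 in the intrakidney and 8.04, 7.78 and 7.83 in the subcutaneous tumors. The 5 receptor genes had a median difference of 0.02, and their 95% intervals lay between -0.29 and 0.30 on the log2 scale. Differences beyond these bounds are therefore outside the intervals, while smaller ones cannot be told from 0 with 3 arrays per group.

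Among the regulatory factors, 6 of 8 had a higher mean in intrakidney tumors and none passed the threshold. Irf8, a factor of monocytes and dendritic cells that interferon gamma induces, measured 9.02, 8.81 and 8.78 in intrakidney and 8.70, 8.68 and 8.67 in subcutaneous tumors. All 3 intrakidney arrays lay above the subcutaneous ones, which lay close together, and the difference was 0.19 ± 0.08 (SE, adjusted p = 0.620), or 0.11 without intrakidney tumor 1. Irf5, a factor of macrophage activation, measured 8.72, 8.57 and 8.65 against 8.38, 8.42 and 8.69. Subcutaneous tumor 3 overlapped with the intrakidney arrays, and the difference was 0.15 ± 0.10 (adjusted p = 0.769). Irf1, the transcription factor induced by interferon gamma, measured 9.83, 9.48 and 9.37 against 9.49, 9.36 and 9.45. Only intrakidney tumor 1 stood above the other 5 arrays, and the difference of 0.13 ± 0.12 (adjusted p = 0.868) was -0.0065 without that array.

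Irf7, which amplifies the type I response and is itself induced by it, measured 9.62, 9.56 and 10.08 in intrakidney and 9.95, 9.89 and 9.57 in subcutaneous tumors. Its highest array was intrakidney tumor 3, where that of Irf1 and Irf8 was intrakidney tumor 1. The difference between sites was -0.05 for Irf7, -0.01 for Irf9, the DNA-binding partner of Stat2, 0.10 for Irf3, the factor activated by nucleic acid sensors, and 0.02 for Irf2, which antagonises Irf1. Irf4, a lymphocyte and macrophage factor, differed by 0.09 at a low level (34.4th percentile of all genes by mean value). Irf2 varied least of the 8, with a pooled SD within groups at the 7.2th percentile of all genes.

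The gamma-induced genes had a median difference of -0.12 between the sites, with 3 of 8 higher and 5 lower in intrakidney tumors, and leaving out 1 array gave -0.29 (without intrakidney tumor 1) to 0.05 (without intrakidney tumor 3). In all 8 the intrakidney arrays spanned more than the difference between the sites, and in all but Cxcl10 the subcutaneous arrays did too. Cxcl9, the chemokine most restricted to interferon gamma, measured 9.95, 8.74 and 8.30 in the intrakidney tumors and 9.70, 9.11 and 9.02 in the subcutaneous tumors. Intrakidney tumor 1 was the highest and intrakidney tumor 3 the lowest of all 6, a span of 3.13-fold within the site. The sites differed by -0.28 ± 0.40 (SE, adjusted p = 0.928, 95% interval -1.20 to 0.64), and leaving out intrakidney tumor 3 gave 0.07, while leaving out intrakidney tumor 1 gave -0.75.

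Iigp1, an immunity-related GTPase that acts on vacuoles of intracellular parasites, measured 10.96, 10.34 and 9.65 against 11.18, 10.55 and 10.49. It followed Cxcl9 in its highest and lowest intrakidney array, with a span of 2.48-fold, and the sites differed by -0.42 ± 0.33 (adjusted p = 0.817, 95% interval -1.18 to 0.34). Leaving out intrakidney tumor 3 gave -0.09 and leaving out subcutaneous tumor 1 gave -0.20, while it was -0.74 when intrakidney tumor 1 was left out. Ido1, the enzyme that degrades tryptophan, measured 6.64, 5.62 and 5.21 against 6.44, 5.63 and 5.94. Its intrakidney span was 2.69-fold, on a dim row at the 23.2th percentile of all genes, where RMA compresses differences. Gbp3, a guanylate-binding protein gene, spanned 1.52-fold and Irgm1, an immunity-related GTPase gene that regulates the others, 1.498-fold, each with intrakidney tumor 1 as the highest and intrakidney tumor 3 as the lowest of that site. They differed between sites by -0.13 and -0.12.

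Cxcl10, the chemokine that both type I interferon and interferon gamma induce, measured 10.78, 10.13 and 10.09 in the intrakidney and 10.06, 9.72 and 9.92 in the subcutaneous tumors. The groups did not overlap, though intrakidney tumor 3 and subcutaneous tumor 1 were nearly level. The difference of 0.43 ± 0.19 (SE, 1.35-fold) did not pass (adjusted p = 0.6004, 95% interval -0.0083 to 0.88). It was 0.21 without intrakidney tumor 1, the highest array. Cxcl11, the third ligand of Cxcr3, measured 7.75, 7.39 and 7.77 against 7.81, 7.39 and 7.37, a difference of 0.11. Cxcl9 lay lower and Cxcl10 and Cxcl11 higher in intrakidney tumors by group mean, and whether these differences differ from each other was not tested. Socs1, the feedback inhibitor of JAK kinases, differed by 0.05, with intrakidney tumor 2 as its highest array (7.84).

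The type I-induced genes had a median difference of 0.03 between the sites, with 16 of 23 higher and 7 lower in intrakidney tumors. Ifi35, which encodes a small interferon-induced protein that binds Nmi, measured 9.40, 9.28 and 9.35 in intrakidney and 9.15, 9.15 and 9.09 in subcutaneous tumors. The groups were apart by more than the spread within either, and the difference was 0.21 ± 0.07 (SE, 1.16-fold, unadjusted p = 0.0173, adjusted p = 0.441). Mx2, a dynamin-like GTPase gene, measured 6.75, 6.57 and 7.46 against 6.92, 6.44 and 6.59, a difference of 0.28 ± 0.23 (adjusted p = 0.833). Mx1, its neighbour, measured 6.75, 6.32 and 7.13 against 6.76, 6.54 and 6.14, a difference of 0.25 ± 0.23 (adjusted p = 0.852). In both Mx genes intrakidney tumor 3 was the highest array and the groups overlapped. Without that array the differences were 0.015 for Mx2 and 0.053 for Mx1, and that of Mx1 was 0.083 without subcutaneous tumor 3. BALB/c mice, like most laboratory strains, carry a defective Mx1 gene.

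Ifit3, of the family that binds foreign RNA ends, measured 7.28, 6.78 and 7.80 in intrakidney and 7.35, 7.07 and 6.69 in subcutaneous tumors. Its difference of 0.25 ± 0.26 (SE, adjusted p = 0.886) was -0.0052 without intrakidney tumor 3, the highest of all 6 arrays. Rsad2, which encodes viperin, measured 8.68, 8.54 and 9.45 against 9.16, 8.96 and 8.51, with group means of 8.89 and 8.88. Ifit1 measured 7.64, 7.51 and 8.21 against 8.02, 7.84 and 7.42, with group means of 7.79 and 7.76. In these 3 genes the ranges of the sites overlapped, with spans of 2.02-fold, 1.89-fold and 1.63-fold within the intrakidney group, and 1.58-fold, 1.56-fold and 1.52-fold within the subcutaneous group.

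**Figure D2:**
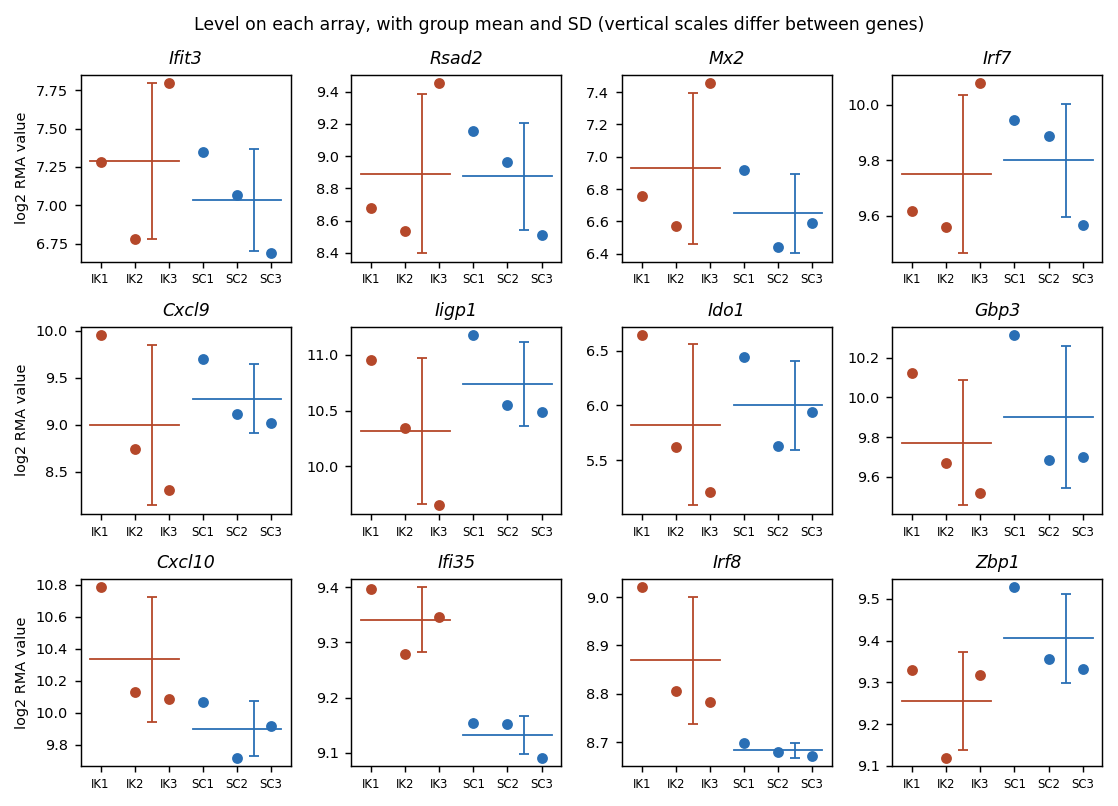
Log2 RMA values (y axis, scales differ between panels) of 12 members on each array, with intrakidney tumors (IK) in red, subcutaneous tumors (SC) in blue, and lines and bars for the group mean and SD (n = 3). Ifit3, Rsad2, Mx2 and Irf7 have their highest array in intrakidney tumor 3, and Cxcl9, Iigp1, Ido1 and Gbp3 have their lowest there, while the bottom row holds 4 of the 6 members whose groups do not overlap.

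The oligoadenylate synthetase family, some members of which activate RNase L upon sensing viral RNA, showed small differences. Oas2 measured 8.68, 8.65 and 8.88 in intrakidney and 8.58, 8.595 and 8.61 in subcutaneous tumors, without overlap, and differed by 0.14 ± 0.08 (SE, adjusted p = 0.721). Oas1a, Oas3 and Oasl1 differed by 0.10, 0.12 and 0.20 and Oasl2 by -0.11. Oasl1 had its highest array in intrakidney tumor 3 (9.77, against 9.20 to 9.40 on the other 5).

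The sensors of cytosolic RNA lay near level: Ifih1 (MDA5) differed by -0.11, Ddx58 (RIG-I) by 0.04 and Dhx58 (LGP2) by 0.03. Zbp1, a sensor of Z-form nucleic acids, measured 9.33, 9.12 and 9.32 against 9.53, 9.36 and 9.33, the only member with all intrakidney arrays below the subcutaneous ones, by -0.15 ± 0.09 (SE, adjusted p = 0.741). Intrakidney tumor 1 (9.33) and subcutaneous tumor 3 (9.33) were nearly level in it. Stat2 and Xaf1, a pro-apoptotic gene, differed by -0.14 and -0.15, with overlapping groups.

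The other type I-induced genes lay within 0.08 of no difference. Usp18, which removes Isg15 from proteins and damps receptor signalling, differed by 0.08, Isg20, an exonuclease gene, by -0.06, Parp14, an ADP-ribosyltransferase gene, by -0.05 and Bst2 (tetherin) by 0.03. Eif2ak2 (PKR), which stops translation, and Ifit2 differed by 0.0027 and 0.0040. Bst2 measured between 10.07 and 10.21 on the 6 arrays, with a 95% interval of -0.14 to 0.19 for its difference. Over the 23 genes the intervals lay between -0.59 and 0.86, so the precision differed widely from gene to gene.

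The listed type I-induced and gamma-induced genes took different intrakidney arrays as their extremes. Of 23 type I-induced genes, 18 were highest in intrakidney tumor 3 and 5 in intrakidney tumor 1, and 21 were lowest in intrakidney tumor 2. Of 8 gamma-induced genes, 6 were highest in intrakidney tumor 1 and 6 lowest in intrakidney tumor 3. The contrast in the highest array did not hold in the 25 further type I-induced genes given below. Of those, 16 were highest in intrakidney tumor 1 and 8 in intrakidney tumor 3. Over all genes, intrakidney tumor 3 was the highest of its site for 24.1% and the lowest for 28.3%, intrakidney tumor 1 the highest for 35.0%, and intrakidney tumor 2 the lowest for 27.8%. After quantile normalization 20 type I-induced genes and after median centring 17 were highest in intrakidney tumor 3, and 6 gamma-induced genes were highest in intrakidney tumor 1 with either. Members of a list respond to shared signals and are not independent, so these counts describe the 3 tumors and carry no test.

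The subcutaneous tumors did not part the lists in this way. There, subcutaneous tumor 1 was the highest for 16 of 23 type I-induced and 7 of 8 gamma-induced genes, against 34.9% of all genes. Subcutaneous tumor 3 was the lowest for 21 of 23 type I-induced genes and 4 of 8 gamma-induced genes, against 36.0% of all genes. In deviations from each gene's mean over the 6 arrays, the type I-induced genes had medians of 0.01, -0.17 and 0.15 in intrakidney tumors 1, 2 and 3 and 0.13, 0.02 and -0.15 in subcutaneous tumors 1, 2 and 3. The gamma-induced genes had medians of 0.36, -0.17 and -0.31, and of 0.39, -0.10 and -0.11.

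**Figure D3:**
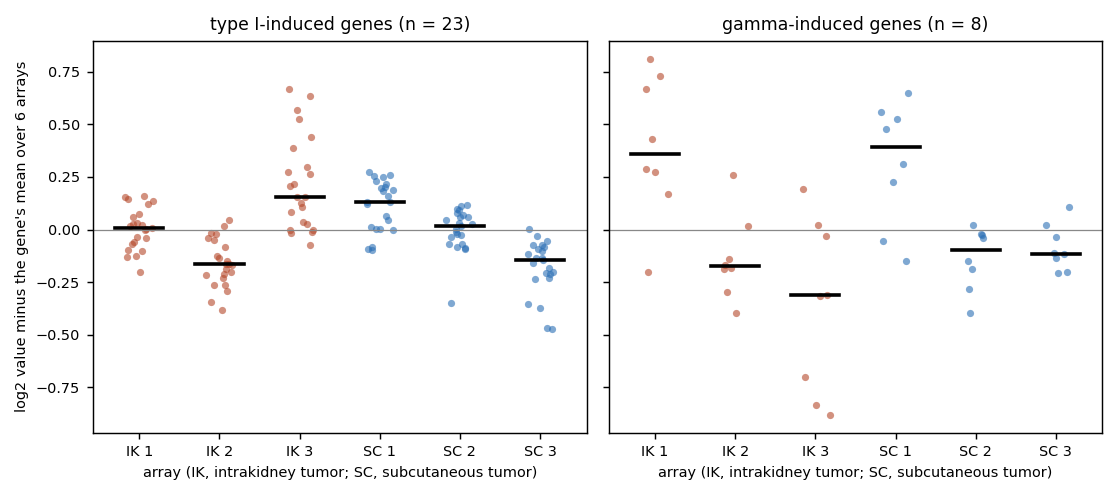
Log2 value minus the gene's mean over the 6 arrays (y axis) for the 23 type I-induced and 8 gamma-induced genes on each array, with 1 point per gene and a black line for the median. In intrakidney tumor 3 the type I-induced median is 0.15 and the gamma-induced median -0.31, while in subcutaneous tumor 1 they are 0.13 and 0.39.

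The gamma-induced genes varied more within groups than most genes on the array. Their pooled SD within groups lay at a median percentile of 97.5 among all genes, against 71.2 for the type I-induced genes, 52.2 for the regulatory factors and 28.0 for the receptors. This was not particular to them. The markers of neutrophils, fibroblasts and kidney tubule, given below, lay at 98.1, 98.7 and 99.2, and the other marker lists lower, at 56.8 to 86.9. The 12 further gamma-induced genes lay at 84.4. Cxcl9 (SD 0.853 in intrakidney and 0.366 in subcutaneous tumors) stood at the 99.7th percentile, and Ifit3 (0.508 and 0.332) and Rsad2 (0.492 and 0.331) at the 99.1th. Ifngr2 (0.036 and 0.012) stood at the 1.3th percentile. The width of the 95% intervals followed, with a median of 0.93 for gamma-induced genes, 0.54 for type I-induced genes and 0.37 for receptors on the log2 scale.

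Further pathway genes, from lists set by name, also held 0 genes past the threshold, where 0.231% of all genes passed. Of 6 interferon genes, all dim (median at the 16.3th percentile of all genes), 3 lay higher and 3 lower. Ifng itself measured 6.15, 6.203 and 6.17 in intrakidney and 6.23, 6.14 and 6.34 in subcutaneous tumors, and did not share the spread of Cxcl9 between arrays. Ifnb1 and Ifna4, of the type I family, differed by -0.08 and -0.14. Of 8 measured genes of JAK-STAT signalling, 5 lay higher and 3 lower. Socs3, an inhibitor of cytokine receptors that mostly answers to interleukin 6 type cytokines, measured 9.07, 9.16 and 9.44 against 8.55, 8.63 and 8.75, a difference of 0.58 ± 0.11 (SE, 1.497-fold, adjusted p = 0.140). Pias1, an inhibitor of this signalling, differed by -0.26 (adjusted p = 0.609).

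Of 11 measured nucleic acid sensing genes, 6 lay higher and 5 lower in intrakidney tumors. In the limma fit 4 of them had an unadjusted p under 0.05, where 8.43% of all genes did. Without overlap, 3 lay higher and 1 lower, where 14.9% of all genes did not overlap in either direction. Sting1 was among the higher ones (0.22, adjusted p = 0.447) and Tlr9 was the lower one (-0.23, adjusted p = 0.532). Ikbke, the kinase that activates Irf3 and Irf7, measured 9.10, 8.93 and 9.07 against 8.58, 8.55 and 8.63, without overlap, a difference of 0.45 ± 0.07 (SE, 1.36-fold) with an adjusted p of 0.0947. Myd88, the adaptor of most Toll-like receptors, measured 9.62, 9.47 and 9.36 against 9.19, 9.18 and 9.24, a difference of 0.28 ± 0.08 (adjusted p = 0.408). The transcripts of Irf3 and Irf7, given above, differed by 0.10 and -0.05. Activation of these factors was not measured.

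Of 25 further type I-induced genes, 15 lay higher and 10 lower, with a median of 0.01. Ifi27l2a, a small membrane protein gene, measured 7.95, 7.94 and 8.32 against 7.43, 7.93 and 7.59, a difference of 0.42 ± 0.15 (SE, adjusted p = 0.497), and Ifitm3, which blocks viral entry, differed by 0.12. Intrakidney tumor 2 was the lowest of its site for 22 of these 25 genes and subcutaneous tumor 3 of its site for 20, as for the listed members. The highest intrakidney array was tumor 1 for 16 of them and tumor 3 for 8, unlike the listed members. Of 12 further gamma-induced genes, 4 lay higher and 8 lower, with a median of -0.11, and 9 were highest in intrakidney tumor 1 and 9 lowest in intrakidney tumor 3. Icam1, an adhesion molecule gene that many inflammatory signals induce, measured 9.03, 9.17 and 9.12 against 8.69, 8.59 and 8.82, a difference of 0.41 ± 0.08 (SE, adjusted p = 0.170), and the T cell chemokine gene Ccl5 differed by -0.24.

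Markers of other cell types moved with some of these array differences, and their part in them was not tested. All 9 T and NK cell markers had lower group means in intrakidney tumors, 4 of them without overlap and 0 past the threshold. Over all 19938 genes, 1301 were lower without overlap and 0.231% passed the threshold. The list means of these 9 markers were 6.30 to 6.57 in intrakidney and 6.73 to 6.87 in subcutaneous tumors. The list mean of the T and NK cell markers was highest in tumor 1 of either site and lowest of all in intrakidney tumor 3. That array had the lowest gamma-induced mean (8.54, against 8.76 to 9.29 on the other 5). The highest gamma-induced mean (9.29) was that of intrakidney tumor 1, whose T and NK cell mean (6.57) lay below that of every subcutaneous tumor. By marker, 4 of the 9 were highest in intrakidney tumor 1 and 4 in intrakidney tumor 2, while 6 were lowest in intrakidney tumor 3. Subcutaneous tumor 1 was the highest of its site for 6. Cd3g measured 8.31, 7.35 and 6.98 against 8.33, 7.76 and 7.83, while Cd3d measured 5.71, 5.85 and 5.78 against 6.19, 6.35 and 6.28. All 8 kidney tubule markers were highest in intrakidney tumor 3, with list means of 6.31, 6.69 and 7.52 in the intrakidney and 6.03 to 6.30 in the subcutaneous tumors. Of these 8, Cyp2e1 alone had groups without overlap (8.36, 7.41 and 10.02 against 6.04, 5.87 and 6.24), where 14.9% of all genes did not overlap. Intrakidney tumor 1 was the lowest of its site for 7 of the 8. All 4 neutrophil markers were highest in intrakidney tumor 3 within the site too, with list means of 6.94, 7.04 and 7.81 against 6.59 to 6.66. The mean of the listed type I-induced genes was highest in intrakidney tumor 3 as well (9.04, against 8.64 to 8.94 on the other 5). The mean of the further type I-induced genes was not (9.40, against 9.44 in tumor 1 of either site). Other arrays did not keep the order. Subcutaneous tumor 1, next highest for the listed type I-induced genes (8.94), had the lowest tubule (6.03) and neutrophil (6.59) means.

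Fibroblast markers took the same arrays as extremes as most type I-induced genes, and their part in that order was not tested. All 5 were highest in intrakidney tumor 3, lowest in intrakidney tumor 2 and highest in subcutaneous tumor 1 of their site, and 4 of 5 were lowest in subcutaneous tumor 3. Between the sites 4 of the 5 were lower in intrakidney tumors and 1 higher, with list means of 9.15 to 10.12 against 10.11 to 10.36. Postn was past the threshold (-1.66, adjusted p = 0.0460), while Dcn differed by 0.46 (adjusted p = 0.781).

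The 5 marker lists that remain held no array that was the highest or lowest intrakidney tumor for all their markers. The list means of 7 macrophage and monocyte markers were 10.02, 9.77 and 9.77 in intrakidney and 9.87, 9.77 and 9.66 in subcutaneous tumors. Plasmacytoid dendritic cells, the main makers of type I interferon, had 6 markers with list means of 7.24 to 7.29 and 7.21 to 7.38, and their defining marker Siglech measured 6.56 to 6.94. Means of 6 conventional dendritic cell markers were 7.004 to 7.20 against 7.01 to 7.09, and those of 3 B cell markers 5.93 to 6.05 against 5.78 to 6.05. All 4 endothelial markers were higher in intrakidney tumors, with list means of 8.72 to 8.84 against 8.31 to 8.49, and Emcn was past the threshold. Of the macrophage and monocyte markers, 6 of 7 were highest in subcutaneous tumor 1 and 6 of 7 lowest in subcutaneous tumor 3 of that site. No marker can be called absent, since these values carry no detection call.

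**Figure D4:**
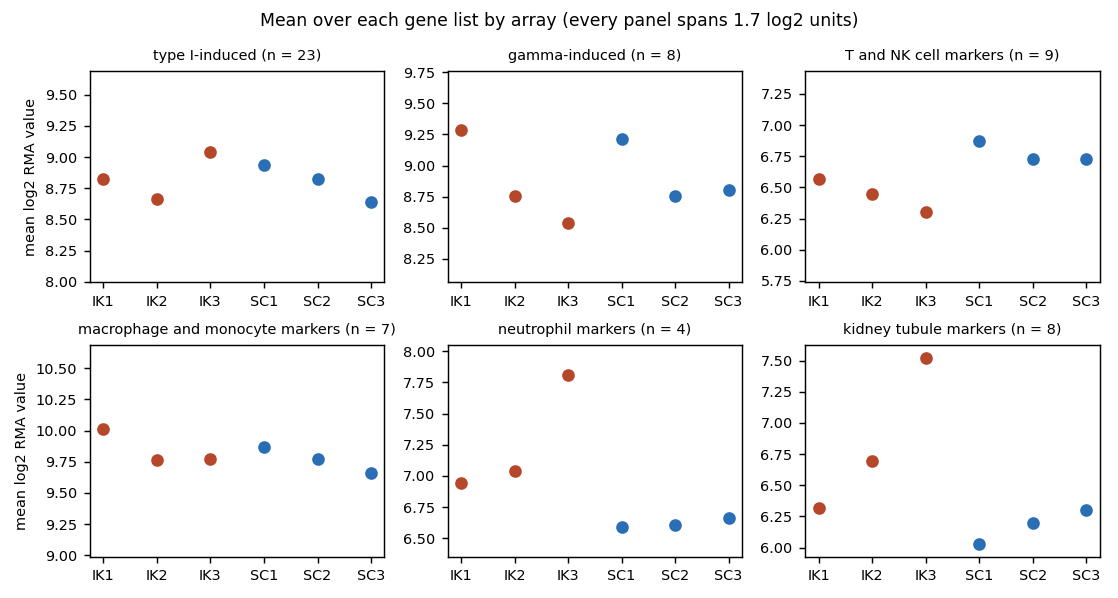
Mean log2 RMA value (y axis, each panel spanning 1.7 log2 units) over the type I-induced and gamma-induced members and over 4 marker lists on each array, with intrakidney tumors (IK) in red and subcutaneous tumors (SC) in blue. Intrakidney tumor 3 has the highest type I-induced, neutrophil and tubule means and the lowest gamma-induced and T and NK cell means of the 6 arrays. Other arrays do not keep this order. Subcutaneous tumor 1 has the next highest type I-induced mean but the lowest neutrophil and tubule means. Intrakidney tumor 1 has the highest gamma-induced mean but a T and NK cell mean below that of every subcutaneous tumor.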

How the data were processed

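RNA from 6 whole tumors, 3 per site, was hybridised to Affymetrix Mouse Gene 1.0 ST arrays, 1 array per tumor. The deposited table holds log2 values that the authors obtained by RMA; the submitters' processing notes also name affy. RMA compresses differences of dim rows. Versions, settings and build: not given in the sources used here. The scale was read from the values. With 3 arrays per group, precision is limited by their number.

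Of 35512 rows, the platform annotation paired 21789 with exactly 1 gene, which gave 19938 genes, each taken by its row of highest mean over the 6 arrays. The sites were compared over all genes by limma 3.58.1 (R 4.3.3) with a mean per group, eBayes, two-sided tests and Benjamini-Hochberg adjustment at a threshold of 0.05, and the 95% intervals are those of the moderated fit. The script was tested on simulated data. Members and lists were chosen with earlier results of these data known, so counts over them are descriptions and carry no test. Full statistics are given for members with an unadjusted p under 0.05 and for the 3 largest differences of each role. Of each pathway list, the 2 genes of lowest p are named, and other genes are given by their values.

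The alternatives changed the scaling (quantile normalization or centring on medians), the genes tested (without those whose mean lay below the 40th percentile, or every row), the row of a gene (the mean of its rows), the scale (an offset of 16) and the model (a trend in intensity with robust prior, weights for arrays, a block for the tumor number), or left out arrays. Promoter windows of 250 bases come from RefSeq, GRCm38.p6.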

Additional observations from a re-analysis of the deposited data

How the results depend on the processing

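No member passed the threshold under any alternative run, and the smallest adjusted p of a member was 0.0827 (Ifi35 with limma array weights). Over all genes the count past it was 46, and it was 101 without dim genes, 74 with an offset of 16, 0 with every row tested, 138 with an intensity trend and robust prior, 624 with array weights, 30 without intrakidney tumors 2 and 3, and 5 at an adjusted p under 0.01. The count with limma and every row tested stood beside 2206 rows at an unadjusted p under 0.05. With the replicate block it was 0, though same-numbered tumors correlated at 0.374, -0.159 and 0.104, so the numbers were not taken to pair them. Leaving out 1 array gave 2 (without subcutaneous tumor 1) to 33. The causes were not tested. Mx1, Mx2, Irf4 and Ido1 had no value without dim genes. The counts of highest arrays under quantile normalization and median centring were chosen after seeing the data. Lowest arrays were not counted under these scalings.

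The median difference of the gamma-induced genes, -0.12 as reported, was -0.29 to 0.05 leaving out 1 array. It was 0.22 without intrakidney tumors 2 and 3, which left intrakidney tumor 1 alone on its side, with no replicate. Intrakidney tumor 1 was the highest of its site for 6 of the 8 gamma-induced genes. With array weights Iigp1 was -0.73, Cxcl9 -0.64, Mx2 0.69 and Cxcl10 0.37. The median difference of the regulatory factors was 0.036 with array weights, 0.17 without intrakidney tumors 2 and 3, and 0.017 (without intrakidney tumor 1) to 0.15 leaving out 1 array. That of the receptors ran from -0.04 (without intrakidney tumor 1) to 0.066. No member changed sign under quantile normalization, median centring, the dim filter, the offset, every row, the mean of rows, the trend or the replicate block.

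With array weights Eif2ak2 was -0.019, Irf4 -0.18, Irf7 0.079, Irf9 0.023 and Cxcr3 -0.0102. Without intrakidney tumors 2 and 3, Ifit1 was -0.12, Ifit2 -0.065, Rsad2 -0.20, Parp14 0.13, Gbp3 0.23, Irgm1 0.21, Iigp1 0.22, Ido1 0.64, Cxcl9 0.67, Socs1 -0.17, Irf9 0.11, Ifngr1 0.0046 and Ifnar2 0.038. Leaving out 1 array gave ranges of -0.19 to 0.17 for Ifit1, -0.13 to 0.11 for Ifit2, -0.0052 to 0.50 for Ifit3, -0.27 to 0.19 for Rsad2, -0.068 to 0.12 for Dhx58, -0.0504 to 0.19 for Usp18, -0.0104 to 0.064 for Bst2, -0.14 to 0.016 for Parp14 and -0.10 to 0.11 for Eif2ak2. They were -0.30 to 0.079 for Gbp3, -0.28 to 0.0096 for Irgm1, -0.59 to 0.13 for Ido1, -0.75 to 0.069 for Cxcl9 and -0.062 to 0.17 for Socs1. They were -0.0065 to 0.22 for Irf1, -0.0062 to 0.0465 for Irf2, -0.0506 to 0.20 for Irf4, -0.21 to 0.048 for Irf7, -0.077 to 0.067 for Irf9, -0.073 to 0.0226 for Ifnar2 and -0.04 to 0.10 for Cxcr3.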
